A study of Mus musculus with 12 samples.

Results

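AGO2 was mapped on RNA of mouse cerebella at postnatal day 7 (P7) and postnatal day 15 (P15), and the stretches of 3' untranslated region (3' UTR) that were listed as AGO2 peaks at both ages are described here. A member was a peak of one age's list that overlapped a peak of the other age's list by at least 1 nt on the same strand and that lay on a 3' UTR of a protein-coding transcript. Members were therefore selected on the peak calls of both ages, and their being found at both ages is the rule and no result. At P7 464 of 4884 peaks were members (9.50%), and at P15 485 of 5173 (9.38%). They were 46.2% of the 1005 P7 peaks and 18.8% of the 2580 P15 peaks in 3' UTRs. Merged where they overlapped, they formed 442 regions in 292 genes.

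All mice were, per the treatment protocol, homozygous for a conditional Spy3-Ago2 allele, although the genotype label of the samples reads WT. All received a virus (AAV) into the cerebral ventricles at birth that carries Cre under the Purkinje cell promoter L7. Spy3 is a peptide tag that lets AGO2 be captured on a HaloTag-SpyCatcher3 resin, so AGO2 was to be captured from the cells in which Cre had acted. The series holds 12 libraries (miRNA, target and input, each in 2 replicates at P7 and at P15) and no group without Cre. One list of target peaks was given for each age. Each is treated here as pooled over the 2 target libraries of that age, which no label states. A separate list of 1624 peaks, called the replicate 2 list, was deposited with P15 target replicate 2. Descriptions of both P7 target libraries name the P7 list, but only that of the other P15 target library names the P15 list. Whether the P15 list holds reads of replicate 2 is therefore not known. Peaks carry a place and a width but no height, since the score is 0 in every entry, and how many animals gave a library is not stated. Single peaks are no replicates of a condition; each test below therefore compares lists or stretches of RNA, and exact 95% binomial intervals cover counting error only.

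AGO2 holds a miRNA and pairs its seed (nucleotides 2 to 8) with mRNAs, most often in 3' UTRs, which lowers the stability and translation of the mRNA. Other proteins read 3' UTRs as well. Pumilio proteins such as PUM2 bind a short word, written TGTANATA in DNA letters where N is any base, and recruit the machinery that removes poly(A) tails. Purkinje cells, the output neurons of the cerebellar cortex, grow their dendrites and gain most of their synapses between these ages.

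The Pumilio-type word was the sequence that set the shared regions apart from the RNA beside them, so sites are shown first. Each line gives a gene and 1 site with its neighbouring bases from the transcript, 5' to 3', with the word in capitals and T for U. The first 6 lie in the word-holding regions with the longest overlap between a P7 and a P15 peak, the others in genes named further on.
Phc2: ggctttgcgctTGTAAATActgatagcact
Nf1: gtatattccccTGTAAATAgtttgtgtaaa
Sbk1: ccccatgtgttTGTAAATActctggcttcc
Slc38a2: ttatgataaacTGTACATAtattgtccata
Diras2: aagtagtaaatTGTACATAtatatctctat
Itpr1: cttagtacattTGTAAATActcagttttgt
Atp2b2: tagacaataatTGTAAATAaagaattcacc
Pum2: atgtacagaatTGTATATActtataattgt
Ddx6: tccatccacacTGTACATAcatgtatttaa
Neurod1: ttgcacaagctTGTAAATAcatattataaa
Zic1: ttttgttttctTGTAAATAcagaattatta
En2: tagaggacatgTGTAAATAatcatttctta
Adcy1: ttaagatgctcTGTAAATAgtgcaccagtt

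These sites were chosen for holding the word, and they differ in its variable base and in the bases around it. In the mm10 genome build the Phc2 region is chr4:128751852-128752064 on the plus strand, 303 nt past the stop codon of a 3' UTR of 1227 nt; its P7 peak was 193 nt wide, its P15 peak 179 nt, and they shared 159 nt. Phc2 encodes a Polycomb protein. The Itpr1 region, chr6:108549901-108550056 on the plus strand, has its midpoint 139 nt past the stop codon of the calcium release channel of Purkinje cell endoplasmic reticulum, and was also in the replicate 2 list. The Slc38a2 region, in the mRNA of an amino acid transporter (chr15:96687797-96687905, minus strand), held 4 words, the highest number in any region. The Pum2 region, chr12:8750409-8750451 on the plus strand, lies in the mRNA of a Pumilio protein itself.

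Most regions were 1 P7 peak over 1 P15 peak (391 of 442). In 34 regions the P15 list had more peaks than the P7 list, in 13 fewer, and in 4 both lists had the same number above 1. Regions had a median width of 83 nt (range 24 to 806 nt), and the shared peaks had median widths of 57 nt at P7 and 64 nt at P15. One-age 3' UTR peaks were narrower, with medians of 50 nt at P7 and 53 nt at P15; wide peaks overlap others more readily, so this difference was not tested. Between the 2 peaks of a pair the overlap had a median of 43 nt, which was 54.2% of their union and 98.8% of the shorter peak. The 5' ends lay within 5 nt of each other in 134 regions and the 3' ends in 132. Both ends were identical in 1 region, of 24 nt in Gnai3, which encodes a G protein subunit. The P7 peak lay inside the P15 peak in 140 regions and the P15 peak inside the P7 peak in 79.

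**Figure D1:**
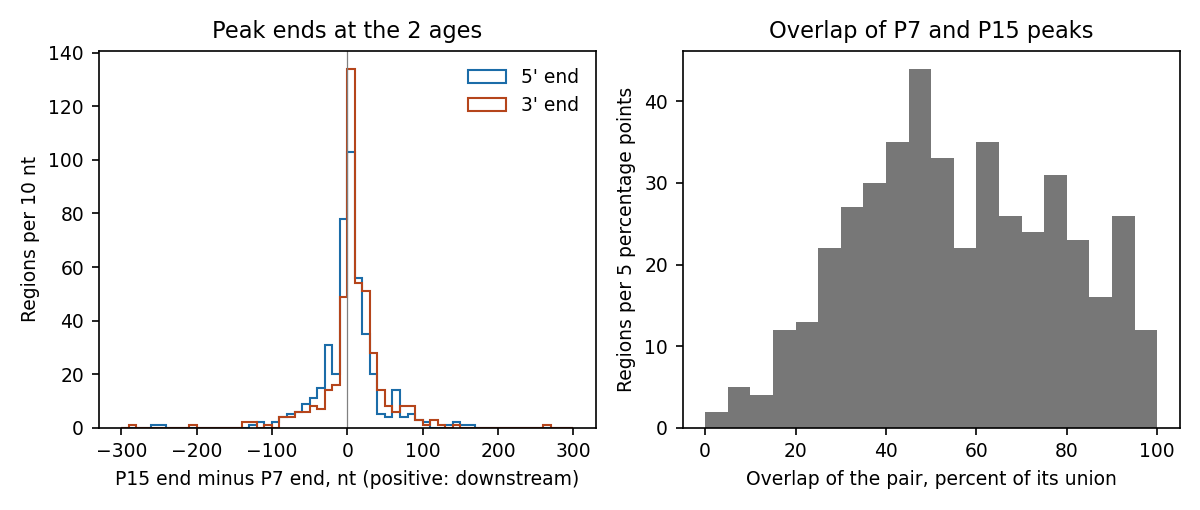
The left panel counts regions by the P15 end minus the P7 end of the peak pair in nt (5' end and 3' end as separate lines, bins of 10 nt, positive values downstream). The right panel counts the 442 regions by the overlap of the pair as a percentage of its union; the ends gather around 0, with median differences of 1 nt (5' end) and 6 nt (3' end), and the overlap spreads widely around its median of 54.2%.

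Few members rested on the 1-nt limit. The smallest overlaps were 1 nt in Ank, 5 nt in Nfic and in Nptn and 6 nt in Slc22a17, and these 4 were the regions under 10 nt. Just outside the rule, a P7 and a P15 peak abutted in Srcin1 with 0 nt between them, and lay 1 nt apart in Stox2, 2 nt in Mapt, and 3 nt in Kcnk9 and in Nlgn2. Within 50 nt of a peak of the other list lay 40 of the 541 P7-only and 96 of the 2095 P15-only 3' UTR peaks. Copies elsewhere in the transcriptome touched few regions: 17 of 435 regions searched held any 25-nt word that also occurs in the transcripts of a gene at another place, and in 0 regions were at least 50% of the words of that kind.

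The Pumilio-type word was far more frequent in the shared regions than beside them. Of 373 regions with room for a window of equal length on both sides within the transcript, 124 held the word (33.2%, exact 95% interval 28.5 to 38.3), against 12 upstream windows (3.22%) and 13 downstream windows (3.49%). The exact McNemar test, two-sided, gave adjusted p = 5.2e-25 over 8 motifs, taking the larger of the p-values of both flanks. This was the 1 motif of 8 (12.5%) that passed. The flanks come from the same transcripts as the regions. Over all 436 regions with sequence, 155 (35.6%) in 140 of the 292 genes held the word and 15 held it more than once. In windows of 83 nt tiled over the 3' UTRs of all protein-coding transcripts 1.64% held it, and over those of the genes with a region 2.95%. The windows have the median width of the regions, which ranged from 24 to 806 nt, so these shares are not matched by width.

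The result did not rest on how a region was bounded. With the stretch common to both ages, 124 of 399 held the word against 6 and 7 flanking windows. With 1 region per gene it was 92 of 234 against 4 and 8. With flanks that touched no peak of either list the share rose to 81 of 178 (45.5%) against 2 and 2. With flanks moved 50 nt away it was 118 of 355 against 17 and 15.

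**Figure D2:**
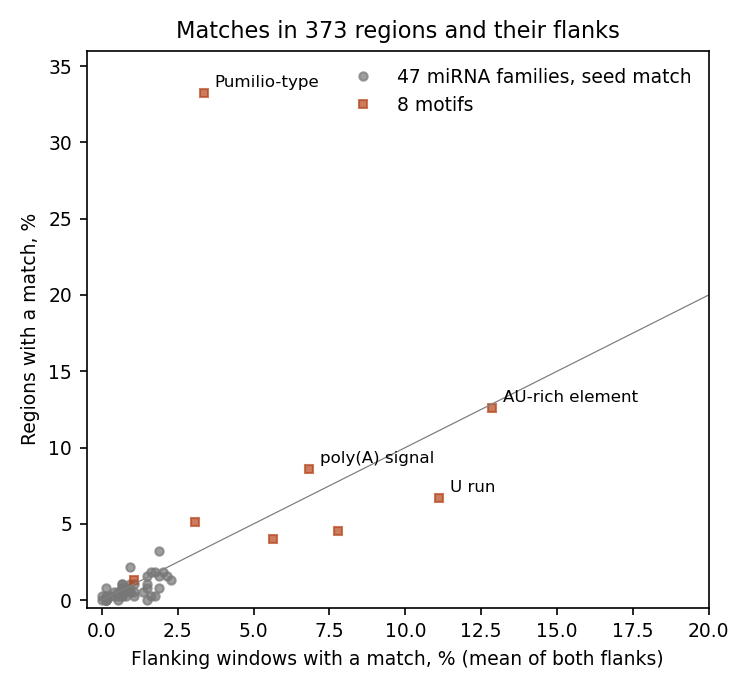
Each point is 1 of 8 motifs (squares) or 1 of 47 miRNA seed families (circles); the horizontal axis gives the mean percentage of the upstream and downstream windows with a match, the vertical axis the percentage of the 373 regions, and the line marks equal shares. The Pumilio-type word stands far above the line at 33.2% of regions, while the other motifs and the seed families lie near it or below.

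The place of the words within regions and peaks was also described. Only words wholly inside a region or peak were counted, which bounds their distance from its centre. Shared peaks had median widths of 57 nt (P7) and 64 nt (P15), where most possible places lie within 20 nt of the centre. The counts below were not tested against an even spread of words. Of 173 words 129 (74.6%) had their centre within 20 nt of the centre of the region. In the 124 pairs with exactly 1 word in both peaks, it lay within 20 nt of the centre of the P7 peak in 103 and of the P15 peak in 108. Its median place was 3 nt downstream of the P7 centre (quartiles -5 and 13.1 nt) and at -7.75 nt, upstream, of the P15 centre (quartiles -13.6 and 5.5 nt). In 92 of these pairs the word lay further upstream within the P15 peak than within the P7 peak, and in 29 further downstream. Each list is one set of calls, so no replicate error can be set against this shift and it is given as a description.

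**Figure D3:**
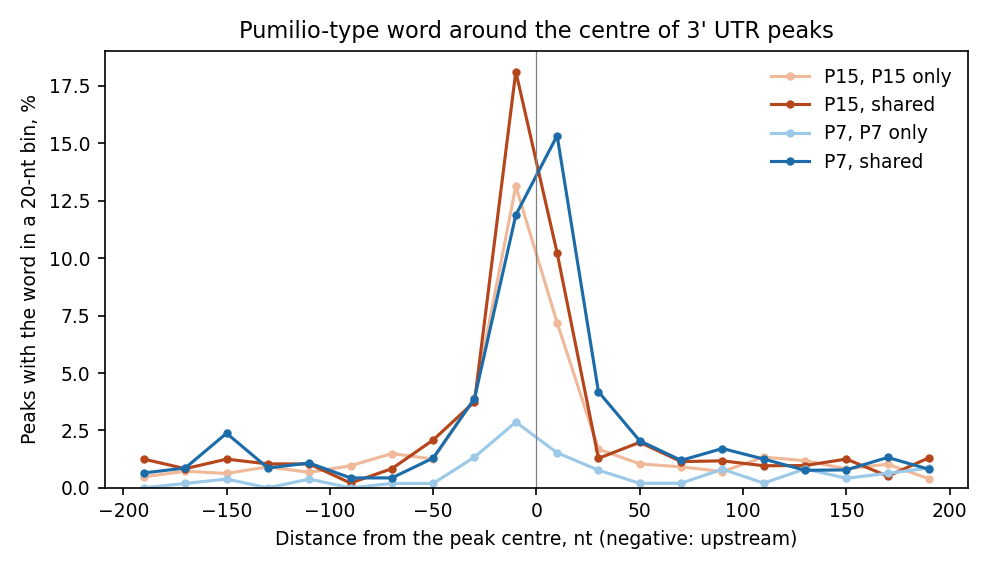
The horizontal axis is the distance from the peak centre in nt (bins of 20 nt, negative values upstream) and the vertical axis the percentage of 3' UTR peaks with a Pumilio-type word in that bin, for shared and one-age peaks of each list. All 4 curves are highest beside the centre; the shared curves reach 15.3% at P7, just downstream of it, and 18.1% at P15, just upstream, the P15-only curve reaches 13.1% in that same bin and the P7-only curve 2.86%.

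The variable base of the word was unevenly used. The word read TGTAAATA in 85 of 173 cases (49.1%), TGTATATA in 43 (24.9%), TGTACATA in 40 (23.1%) and TGTAGATA in 5 (2.89%). Among the rare G forms were a site in Atp2b2, which encodes a plasma membrane calcium pump of Purkinje cells, and one in Gpm6b, which encodes a proteolipid membrane protein, both in 3' UTRs that also held an A form in another shared region.

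A search over all 6-nt words, which uses no chosen motif, led to the same place. Of 4096 words 15 passed (0.366%; exact McNemar test, Benjamini-Hochberg), all 15 more frequent in regions than in flanks, and 57 had an unadjusted p under 0.05. The first was GTAAAT, in 87 regions against 10 upstream and 15 downstream windows (adjusted p = 1.35e-11), followed by TGTAAA in 105 against 18 and 27 (adjusted p = 1.77e-10), TGTATA in 80 against 13 and 16 (4.49e-10) and TGTACA in 88 against 17 and 21 (2.43e-09). These 4 are parts of the Pumilio-type word. Further words that passed overlap it or extend it at an end, such as TATATA with 65 regions against 6 and 12 windows, so the 15 calls are not independent.

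Some regions without the full word carried its beginning. In the 249 word-free regions with both flanks, 1 of 4096 words passed, TGTACA, with 50 regions (20.1%, exact 95% interval 15.3 to 25.6) against 11 and 12 flanking windows (adjusted p = 0.00105, exact McNemar test). Here 25 words had an unadjusted p under 0.05, and next in order were GTACAG (36 against 7 and 10) and TGTATA (32 against 5 and 7), both with adjusted p = 0.0959. Of all 281 word-free regions 55 held TGTACA (19.6%), against 3.06% of 83-nt windows over all 3' UTRs and 4.03% over those of the genes with a region. These shares too are not matched by width. Word-free regions were chosen after the first search was seen. The sites below, with TGTACA in capitals, are from the word-free regions with the longest overlap between ages. That the letters after it do not complete the Pumilio-type word follows from how these regions were chosen and is no result.
Rab14: aaaataccagttTGTACAgtgtgacctata
Tmem151b: agactgcttcccTGTACAcagacagaggct
Adnp: tgcacataacctTGTACAatcttgcaaaag
Kmt2e: ctttttaaagctTGTACAtgaaactttgta

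Rab14 encodes a small GTPase of endosome traffic, and its region (chr2:35181456-35181621, minus strand) had 151 nt in common between the ages. Adnp (chr2:168181305-168181404, minus strand) and Kmt2e (chr5:23503059-23503162, plus strand) encode chromatin-linked nuclear proteins.

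Against peaks listed at 1 age, the word was more frequent in the shared peaks of both lists. At P15 it was in 154 of 480 shared peaks (32.1%, exact 95% interval 27.9 to 36.5) and in 494 of 2078 P15-only peaks (23.8%, exact interval 22.0 to 25.7), with adjusted p = 0.00114 in Fisher's exact test, two-sided. At P7 it was in 142 of 463 shared peaks (30.7%, 26.5 to 35.1) and in 24 of 524 P7-only peaks (4.58%, 2.96 to 6.74), with adjusted p = 1.27e-28. The difference was 8.31 percentage points at P15 and 26.1 at P7, but within genes that held peaks of both classes it was 17.5 and 18.3; the contrasts share the members and were not tested against each other. Since shared peaks are wider, the comparison was repeated in windows of 51 nt around the peak centre, and with 1 peak per gene and within genes holding peaks of both classes; the difference remained past the threshold each time, between 7.93 and 17.5 percentage points at P15 and between 18.3 and 31.9 at P7. Base composition moved with it at P7: the median GC content was 41.8% in shared and 54.0% in P7-only peaks, but 41.8% in shared and 40.7% in P15-only peaks at P15. Its part in the difference at P7 was not tested.

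**Figure D4:**
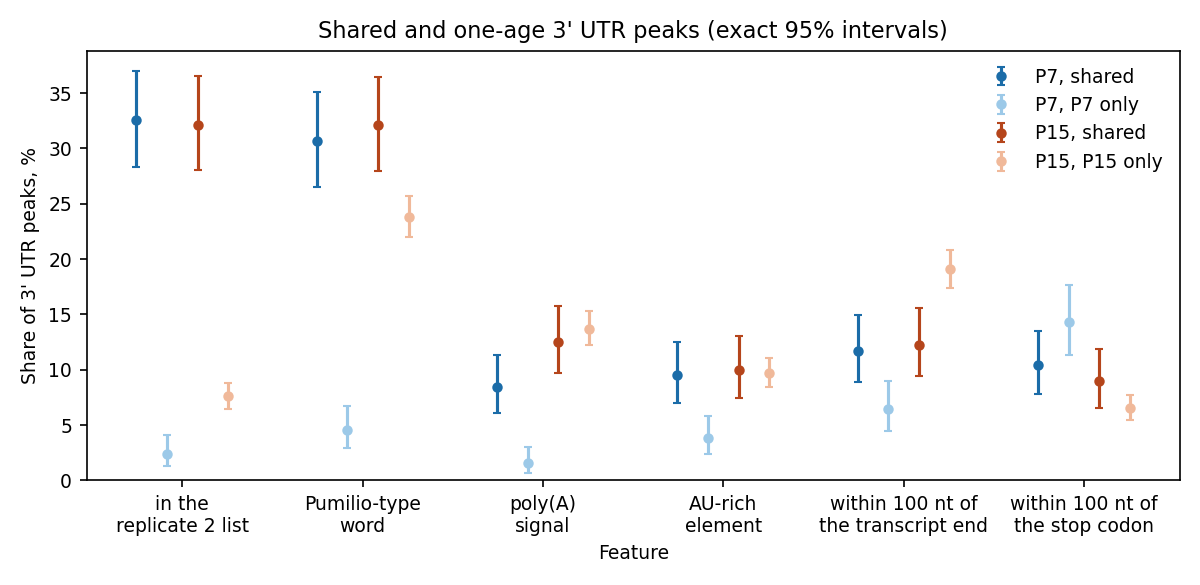
Points give the percentage of 3' UTR peaks with each of 6 features, with exact 95% binomial intervals, for P7 peaks (blue) and P15 peaks (red-brown), dark for shared and pale for one-age peaks. Shared peaks of both lists stand above their one-age peaks for the Pumilio-type word (30.7% and 32.1%). Their shares in the replicate 2 list (32.5% and 32.2%) are not taken as independent of how the members were chosen.

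Of the 24 Fisher's exact tests of shared against one-age peaks, adjusted together, 12 passed (50%), 2 of them those of the Pumilio-type word and 2 those of overlap with the replicate 2 list. The latter are given as a description and no p is read from them. The P15 list is treated here as holding the reads of that replicate, which no label states. The rule also already split the P7 peaks by their overlap with P15 peaks. Of the P15 peaks, 156 of 485 shared ones (32.2%, exact 95% interval 28.0 to 36.5) and 159 of 2095 P15-only ones (7.59%, 6.49 to 8.81) overlapped it. Of the P7 peaks it was 151 of 464 (32.5%, 28.3 to 37.0) against 13 of 541 (interval 1.29% to 4.07%). In total, 151 of the 442 regions (34.2%) were in it. The word was in 63 of the 151 regions found in all 3 lists (41.7%) and in 92 of 285 others with sequence (32.3%), a pair of shares that was not tested.

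The regions with the longest stretch common to all 3 lists included mRNAs of signalling, membrane traffic and calcium handling. The longest was 117 nt in Adcy1 (chr11:7172696-7172847, plus strand), in the mRNA of a calcium-stimulated adenylyl cyclase. It was followed by 77 nt in Sbk1, a kinase gene, 76 nt in Dnm1, which encodes the vesicle-scission GTPase dynamin, 72 nt in Trir, and 70 nt each in Fnbp1 and Nrep. Itpr1 had 69 nt, a second Adcy1 region 68 nt and Arhgef10l 67 nt. Of these regions those in Trir and Itpr1 held 1 Pumilio-type word and that in Arhgef10l held 2.

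Along the 3' UTR shared regions were spread out. The median region lay 875 nt past the stop codon and 958 nt before the transcript end in a 3' UTR of 2602 nt, at 46.3% of its length. Within 100 nt of the annotated transcript end lay 12.3% of shared and 19.1% of P15-only peaks (adjusted p = 0.00135, Fisher's exact test), but 11.7% of shared and 6.46% of P7-only peaks (adjusted p = 0.0144), so that shared peaks lay between both one-age classes. Upstream of the UTR midpoint it was 53.8% against 47.7% at P15 (adjusted p = 0.0377) and 53.5% against 61.1% at P7 (adjusted p = 0.0388). None of these 4 differences passed within genes that held peaks of both classes (adjusted p = 0.848 for each, except 0.427 for the midpoint at P15). Within 100 nt of the stop codon the shares were 8.94% against 6.52% at P15 (adjusted p = 0.125) and 10.4% against 14.3% at P7 (adjusted p = 0.127).

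Other 3' UTR words also set the shared P7 peaks apart from the P7-only peaks. The poly(A) signal AATAAA, which directs cleavage of the transcript, was in 8.42% of shared and 1.53% of P7-only peaks (adjusted p = 1.56e-06, Fisher's exact test). The AU-rich element ATTTA, read by proteins that control mRNA decay, was in 9.50% against 3.82% (adjusted p = 0.00135). The Rbfox-type word TGCATG, bound by splicing regulators of neurons, was in 3.02% against 0.763% (adjusted p = 0.0233). In genes with peaks of both classes none of the 3 passed: the differences there were 5.06, 7.44 and 1.19 percentage points (adjusted p = 0.0773, 0.0509 and 0.848 in this order), beside 6.90, 5.69 and 2.26 over all peaks, and the AU-rich and Rbfox-type words did not pass in windows of 51 nt either. At P15 none of these passed: the poly(A) signal was in 12.5% of shared and 13.7% of P15-only peaks, the AU-rich element in 48 of 480 and 202 of 2078. TGGAAT, the first bases of the 3' adapter's fixed part, was in 3.54% of shared and 1.64% of P15-only peaks (adjusted p = 0.0259) and in 3.46% against 2.48% at P7; with 1 peak per gene the P15 difference was 2.03 points in place of 1.91 and did not pass (adjusted p = 0.118), while in genes with peaks of both classes the P7 difference was 5.81 points and passed (adjusted p = 0.0199). All motifs were searched on the sense strand of the transcript.

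None of these other motifs passed in the regions against their flanks. AATAAA was in 32 of 373 regions, 20 upstream and 31 downstream windows, ATTTA in 47, 38 and 58, TGCATG in 19, 8 and 15, and a run of T (TTTTTT) in 25, 34 and 49. The GU repeat TGTGTG was in 17 regions against 28 and 30 windows, the Quaking-type word ACTAAC in 5 against 6 and 2 and TGGAAT in 15 against 15 and 27. The smallest adjusted p of these was 0.358. GC content was lower in the region than in the upstream window in 219 regions and higher in 139 (exact sign test, two-sided, p = 2.77e-05; median difference -3.28 percentage points). Against the downstream window it was lower in 179 and higher in 176 (exact sign test, p = 0.915).

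No excess of sites for the miRNAs captured with AGO2 was detected in the shared regions. Families are groups of miRNAs with the same nucleotides 2 to 8, and 47 families with a mean of at least 1000 CPM (counts scaled to the library total) over the 4 miRNA libraries were searched. The mature sequences of the most abundant families whose sequence was at hand are shown with the seed in capitals, and beside them sites in shared regions with the match in capitals, as examples of what was searched for.
miR-29c-3p: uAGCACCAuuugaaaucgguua
Tubb2a site of miR-29c-3p: tttgtaaattaTGGTGCTcagtttgcctct
miR-9-5p: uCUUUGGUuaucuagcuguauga
Adgrl1 site of miR-9-5p: aaaggggccagACCAAAGataatggtttgc
miR-125b-5p: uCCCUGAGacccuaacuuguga
Adcy1 site of miR-125b-5p: gaagcacaagtCTCAGGGgaccgttcccat
miR-138-5p: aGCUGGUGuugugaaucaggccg
Homer3 site of miR-138-5p: gcctcctccacCACCAGCtctgccagctgc

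None of the 47 families passed (0%; exact McNemar test with Benjamini-Hochberg adjustment), and 0 had an unadjusted p under 0.05. The miR-29c-3p family stood at 115658 CPM on average, 57204 at P7 and 174111 at P15. Its matches lay in 1 of 373 regions against 6 upstream and 7 downstream windows. Those to miR-9-5p, at 114790 CPM, lay in 2 against 3 and 1, those to the miR-125b-5p family in 4 against 4 and 3, and those to miR-138-5p in 7 against 12 and 3. The family with most matches was that of miR-370-3p, with 12 against 8 and 6 (exact McNemar p = 0.481 before adjustment). At least 1 of the 47 matches lay in 102 regions (27.3%, exact 95% interval 22.9 to 32.2), in 126 upstream windows (33.8%) and in 112 downstream windows (p = 0.415, larger of both exact McNemar p-values). Sequences were matched for 1679 of the 1978 listed miRNAs, which took 61.1% to 65.2% of the counts of a library; miR-124-3p was among those not matched and was not analysed here. Library totals were 13059 and 6828 counts at P7 against 169054 and 94132 at P15, so the choice of families rests on fewer counts at P7.

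Most genes with a shared region held 1. Of 1568 genes with a 3' UTR peak in either list 292 (18.6%) held a shared region, and of the 401 genes with 3' UTR peaks in both lists 72.8% did. A single region was found in 220 of the 292 genes, 2 in 44, and 3 or more in 28. The word was most frequent where a gene had few regions: it was in 43.1% of 216 sequenced regions that were alone in their gene, in 42.5% of 87 regions of genes with 2, and in 18.8% of 133 regions of genes with 3 or more. The last group comes from 28 genes, and regions of the same gene are not independent. In it Adcy1 had 21 regions, 1 with the word, and Tbc1d16 had 15, 0 with it. The regions of these 3 groups had median GC contents of 39.3%, 37.9% and 50% and median widths of 75.5, 83.0 and 102.0 nt. The part of composition, width and single genes in this order was not tested.

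**Figure D5:**
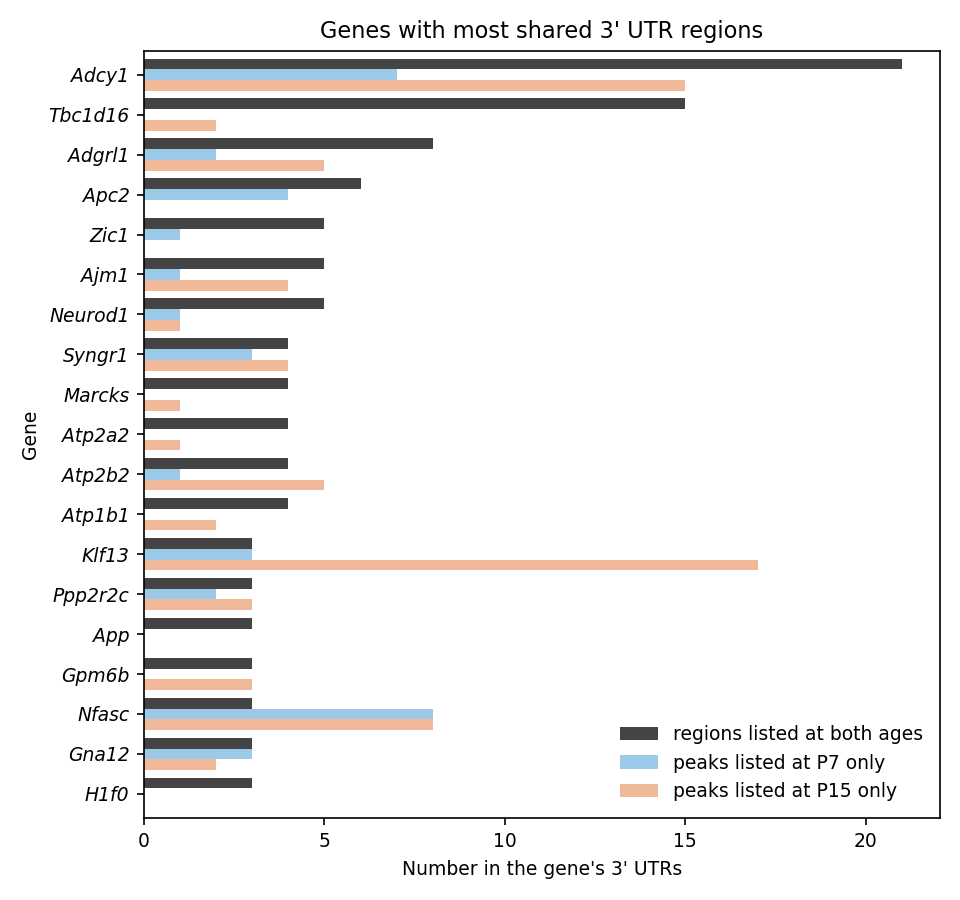
Bars give, for the genes with most shared regions, the number of shared regions, of 3' UTR peaks listed at P7 only and of 3' UTR peaks listed at P15 only. Adcy1 with 21 and Tbc1d16 with 15 regions stand far above the rest; Tbc1d16 has nearly no one-age peaks, while Klf13 has 17 peaks listed at P15 only beside 3 regions.

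Adcy1 and Tbc1d16 together held 36 of the 442 regions. Adcy1, the calcium-stimulated adenylyl cyclase, had 21 regions between positions 7169512 and 7178163 of chromosome 11 (plus strand), made of 21 P7 and 27 P15 peaks, beside 7 P7-only and 15 P15-only peaks. The regions summed to 3006 nt beside a 3' UTR of 8791 nt, and 1 had its midpoint before the 3' UTR. The others lay up to 3277 nt past the stop codon, except 2 regions at 7748 and 8398 nt. In Adcy1 13 regions were in the replicate 2 list and 1 held the Pumilio-type word. Tbc1d16, which encodes a GTPase-activating protein for Rab proteins, had 15 regions on chromosome 11 (119143075 to 119147605, minus strand) from 22 P7 and 22 P15 peaks, beside 0 P7-only and 2 P15-only peaks. They summed to 3284 nt beside a 3' UTR of 4523 nt, 1 region of 806 nt being the widest of all, and 1 of the 15 was in the replicate 2 list. No Tbc1d16 region held the word.

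The other genes of the first 20 held 3 to 8 regions each. The adhesion receptor gene Adgrl1 had 8 and Apc2, a relative of the Wnt regulator Apc, had 6, of which 0 were in the replicate 2 list. Zic1 and Neurod1, transcription factors of the granule cell lineage, had 5 each, as had Ajm1, which encodes a junction protein. With 4 regions followed Syngr1 (a synaptic vesicle protein), Marcks (a membrane-bound substrate of protein kinase C) and 3 ion pump genes, Atp2a2, Atp2b2 and Atp1b1. All 4 Atp1b1 regions were in the replicate 2 list. With 3 regions followed Klf13, Ppp2r2c, App, Gpm6b, Nfasc, Gna12 and H1f0. App, the amyloid precursor gene, had 3 P7 and 4 P15 peaks in its 3' UTR and all were shared. Nfasc, which encodes a cell adhesion protein of the axon initial segment, had 8 one-age peaks in each list.

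Genes of synaptic structure were among the members. Counts by list stand beside the 18.6% of all genes with a 3' UTR peak. The lists were chosen with earlier results known and are not tested. Each list with more than 1 such gene, also of other kinds, stood above 18.6%. All genes with a shared region had 3' UTR peaks in both lists, and of such genes 72.8% held one. Peaks in both lists were found in 12 postsynaptic, 9 presynaptic, 6 channel and receptor and 8 signalling enzyme genes. Of 20 genes of postsynaptic scaffolds and adhesion with a 3' UTR peak 11 (55.0%) held a shared region, with a median of 1 region in those that did, as over all genes. Among them were Adgrl1, Shank3, Nlgn2 and Shank2 with 8, 2, 2 and 2 regions; Nlgn2, the neuroligin of inhibitory synapses, had 6 P7 and 10 P15 peaks in its 3' UTR. Of 16 genes of presynaptic and vesicle proteins 7 (43.8%) did, Bsn, a scaffold of the active zone, with 2 regions and Cplx1, Syp and Syt11 with 1 each. Of 22 channel and receptor genes of Purkinje cell firing 5 (22.7%) did: Atp2b2, Itpr1, the GABA-B receptor subunit gene Gabbr1, the sodium channel gene Scn2a and Cacng2, whose product carries AMPA receptors to the synapse. Of 19 signalling enzyme genes 5 (26.3%) did, among them Adcy1, Gsk3b and Ppp1r9b.

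Members of the regulatory lists were also found. Of 21 genes of RNA-binding proteins 8 (38.1%) held a shared region, Pum2 with 3 and Prrc2b, Prrc2a and Celf4 with 1 each. Of the miRNA pathway 1 of 2 genes did, Ddx6, which encodes a helicase of translational repression, and both of its regions held the word. Of 23 genes of chromatin regulators and transcription factors 10 (43.5%) did, among them En2 and Auts2, and of 32 genes of dendrite and cytoskeleton regulators 11 (34.4%), among them Sptbn1, Ank3 and Kif1b.

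Markers of several cell types were among the members. Of 16 Purkinje cell markers with a 3' UTR peak 5 (31.2%) held a shared region, among them Itpr1 with 2, and Homer3, Calb1 and Gad1 with 1. Of 17 granule cell markers 6 (35.3%) did, Zic1 and Neurod1 with 5 and Cntn2 with 2. Of 7 Bergmann glia and astrocyte markers 3 did (Hopx, Gdf10 and Sparcl1), and of 3 oligodendrocyte markers Mbp did, with 2. Of the molecular layer interneuron markers 1 had a 3' UTR peak and it was not shared. The granule cell list held 15 regions and the Purkinje list 6. A peak list holds no expression level, so the part of RNA from other cells in these peaks was not tested.

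Of the 4 targets of miR-206 named by the study, a list that rests on these samples and is no independent evidence, Shank3 and En2 held 2 shared regions each. Shank3, a postsynaptic scaffold gene, had 2 P7 peaks in the 3' UTR and both were shared, with 8 P15 peaks there; En2, a homeobox gene of the cerebellum, had 3 and 9. Vash1 and Prag1 had 0 P7 peaks and 1 P15 peak each in the 3' UTR. For these genes only the shared regions were searched for matches to miR-206-3p. The 6 P15-only peaks of Shank3, the 1 P7-only and 6 P15-only peaks of En2 and the peaks of Vash1 and Prag1 were not. Neither Shank3 region nor either En2 region held the 7-nt match to miR-206-3p. The 6-nt match (nucleotides 2 to 7) was in 1 of the Shank3 regions, chr15:89559887-89560015 on the plus strand, and in neither En2 region, while both En2 regions held the Pumilio-type word. In the shared regions as a whole miR-206-3p matches lay in 3 regions against 4 and 1 flanking windows.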

How the data were processed

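Target peaks were deposited by the authors as lists with place and strand, and the score of each peak in the deposited lists is 0 throughout and was not used. The peak caller is not given in the sources used here. The submitters' processing notes name STAR 2.5.2a and Bowtie2 2.4.2, then cutadapt 2.10 and UMI-tools, and also deepTools 3.1.3, DESeq2 1.36.0 and the mm10 build, without their roles. The deposited miRNA files give raw counts for mature miRNAs; CPM here are counts over library totals. Input libraries were not analysed.

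Peaks were placed on the 3' UTRs of GENCODE M21 (mm10). Positions and sequence come from the transcript with the longest 3' UTR that holds the midpoint. miRNA sequences are RefSeq's (GRCm38.p6). Flanks are adjacent windows of equal length in the transcript; per word the larger p of both flanks was taken, set to 1 where they lay on opposite sides. Fisher's, McNemar and sign tests were exact and two-sided, with a threshold of 0.05. Benjamini-Hochberg adjustment was used except for the sign tests and for matches to any family. McNemar tests were run on simulated sequences with planted words and Fisher's test on simulated counts, but the sign test was not simulated. Words, where planted, were in a larger share of sequences than any seed family matched, so smaller shares were not tried. Python 3.11.15, numpy 2.4.6, scipy 1.17.1 and matplotlib 3.10.9 were used.

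Named are the 20 genes with most regions, up to 4 members of each of 14 gene lists, the 4 genes the study names, the 10 regions longest in all 3 lists, and examples per word or family by overlap; a few genes under this rule are not reported here, and some further list members and Gnai3 were named after their values were seen. The members, gene lists and motifs were chosen with earlier results of these data known. Alternatives changed the overlap, location, peak choice, flanks and site types.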

Additional observations from a re-analysis of the deposited data

How the results depend on the processing

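Counts of members moved with the overlap rule. When at least 50% of both peaks had to overlap, 280 P7 peaks and 281 P15 peaks in 279 regions were left. Against the replicate 2 list, used for P15, it was 164 P7 peaks and 160 peaks of that list in 157 regions. The number of 6-nt words that passed was 9 with flanks that touch no peak, 29 against the upstream flank alone and 1 in regions without the Pumilio-type word, an alternative chosen after seeing the data. The Pumilio-type word stayed past the threshold under each alternative run, in regions with an adjusted p of at most 4.69e-20. No seed family passed under any of them; matches to any family, per 100 regions, differed by -6.43 from the upstream flank alone (exact McNemar p = 0.0498), with values from -8.55 to -0.13 over all alternatives. GC against the downstream flank turned from -0.80 to 1.81 (percent of regions higher minus percent lower) with P7 boundaries and passed in neither. The Rbfox-type difference at P7 turned to -1.04 points with overlap of at least 50% of both peaks (adjusted p = 0.570). Of the other motif and position results, 144 comparisons kept their side of the threshold, 18 lost it and 5 passed newly. No paired analysis was possible because the peak lists hold no replicates. Without each of the 4 miRNA libraries in turn no family passed. Depth per peak is unknown, and the P7 and P15 lists cannot be set against replicate error.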
